A study of Schizosaccharomyces pombe with 12 samples.

Results

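For each of 5994 genes of fission yeast, out of 6888 listed, the RNA level in cells lacking both med20 and rrp6 was compared with the level expected from the 2 single deletions. If the deletions act independently on a gene, the change in the double mutant is the product of the 2 single changes. The interaction is the log2 change of the double mutant minus the log2 changes of med20Δ and rrp6Δ, all against wild type, so that 0 means equal to the product, a positive value above it and a negative value below it. Members were the genes whose mean normalised count in wild type was at least 10 in each of the authors' 3 deposited tables. Of the remaining genes, 877 lay below that minimum and 17 had no entry in the double-mutant table. The members are 4945 protein-coding genes, 528 antisense RNAs, 468 other non-coding RNAs, 30 rRNAs, 21 snoRNAs and 2 snRNAs. No tRNA gene was a member, because the highest lowest wild-type mean among 165 listed tRNA genes was 9.34, so tRNA genes are described separately. At the edge of the minimum, SPNCRNA.20 had a lowest wild-type mean of 10.1 and an interaction of 0.19, and just outside it SPNCRNA.1088 had 9.99 and -1.49.

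Poly(A)-selected RNA of Schizosaccharomyces pombe was sequenced from 4 strains with 3 samples each, all grown in rich YEA medium to log phase. The double mutant is med20:natMX rrp6∆::KanMx6 with leu1-32 and a ura4 allele, labelled ura4-D18 in its first sample. The med20Δ strain is h+ with med20:NAT, leu1-32 and ura4-D18. The rrp6Δ strain is h- with rrp6∆::KanMx6 and also carries Leu1-32, His2, a ura4 allele named Ura4 DS/E and a ura+ insertion at Otr1R. The wild type is h- of the L972 type. In the labels the number of the wild-type strain and that of the ura4 allele of the double mutant count up by 1 from sample to sample. Mating type and nutritional alleles differ between the strains together with the deletions, so their parts in any difference cannot be told apart. All alleles belong to haploid cells of 1 strain a group, and nothing in the labels says whether the samples were separate cultures, although the series design names biological replicates. The p-values measure only the spread between these samples.

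Med20 is a subunit of the head module of Mediator, the complex that relays signals from transcription factors to RNA polymerase II. Rrp6 is an RNA-degrading enzyme that works with the nuclear exosome, the complex that trims stable RNAs and degrades antisense, intergenic and other short-lived transcripts. In vegetative fission yeast the exosome with Rrp6 also removes meiotic mRNAs that the RNA-binding protein Mmi1 marks. Mediator acts mainly on synthesis and the exosome on removal, and the comparison asks whether the RNA of a gene responds to loss of one in the same proportion when the other is missing.

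The authors deposited only the mean of each strain. The means carry enough digits to be split into whole counts of the 3 libraries behind them, and 5785 members could be split in all 12 libraries. The other 209 members, among them 103 genes of cytosolic ribosomal proteins, had means too high to be split and have an interaction but no test. Recovered libraries held 7693181 to 11350616 counts. They are numbered within a strain and carry no replicate letter. Levels of single libraries are given as counts divided by a size factor over all 12 libraries, and tests were made with limma, with p-values adjusted by Benjamini-Hochberg over all genes tested and a gene called at an adjusted p under 0.05. In each strain the library with the lowest mean correlation with its 2 companions was taken as standing apart. The rule itself gives 1 library per strain. These 4 libraries correlated best with their own strain, and among libraries of other strains they correlated more with the set-apart ones than with the rest. They were library 2 of the double mutant, library 1 of med20Δ, library 2 of rrp6Δ and library 1 of wild type, and 16.8% of the variance over the genes tested lay along the principal component that separated them. The choice was narrow in the double mutant, where the mean correlation with the companions was 0.953 for library 2 and 0.956 for library 1.

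Most genes in the double mutant stood near the product of the single effects. From the authors' deposited tables, the median interaction over all members was -0.03. An excess over the product of at least 1 on the log2 scale, a factor of 2, was seen for 240 members, which is 4.0%, and a shortfall of that size for 137, which is 2.29%. By limma 5 genes were called above the product and 5 below, each 0.0864% of the genes tested. Among these 10, med20 is a deleted gene, and ura4 and new25 belong to the locus of the ura4 marker. Only 4 of the 10 were called in every fit that left out 1 library. At an unadjusted p under 0.05 there were 185 above and 174 below, together 6.21%. The median standard error of an interaction was 0.39. The 95% interval of the interaction lay within 1 of the product on the log2 scale for 2034 genes, 35.2% of those tested, and for the rest a departure of a factor of 2 was not excluded by its interval.

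**Figure D1:**
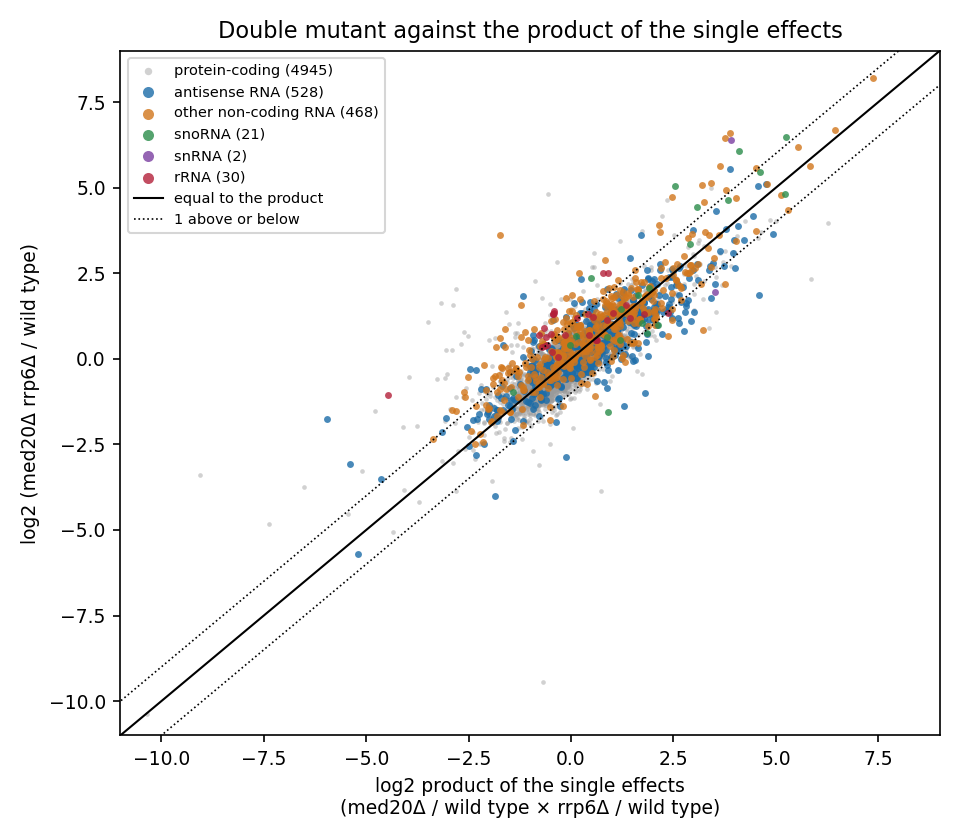
Log2 change of the double mutant over wild type (vertical axis) against the log2 product of the 2 single effects (horizontal axis), computed from the authors' deposited means, with 1 point for each of 5994 genes coloured by RNA type. The solid line marks equality and the dotted lines a departure of 1; 240 genes lie at least 1 above the line and 137 at least 1 below it, with ura4 lowest at -8.77.

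The RNA types differed in the direction of the departures, and also in precision. By limma the median standard error was 0.37 for protein-coding genes, 0.49 for antisense RNAs and 0.55 for other non-coding RNAs. It was 0.62 for snoRNAs and 0.91 for rRNAs. A departure of a factor of 2 in either direction is reached more easily in types with a larger error. Protein-coding genes had a median interaction of -0.05, with 112 at least 1 above and 75 at least 1 below. Antisense RNAs had a median of -0.06, with 31 above and 41 below, which is 5.87% and 7.77% of them. Other non-coding RNAs, most of them intergenic transcripts, had a median of 0.20, with 77 above and 16 below, or 16.5% and 3.42% against 4.0% and 2.29% of all members. Of 21 snoRNAs, 5 lay above and 3 below, with a median of 0.44. The rRNA genes had the highest median of a type with more than 2 members, 0.94, and 14 of 30 lay above. No rRNA, snoRNA or snRNA was called by limma, and at an unadjusted p under 0.05 there were 3 of 23 rRNAs above the product and none below, and 2 of 20 snoRNAs above and 2 below. At the same limit 20 of 528 antisense RNAs were above and 40 below, and 38 of 465 other non-coding RNAs above and 8 below. Over all 5785 genes tested these counts were 185 and 174.

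**Figure D2:**
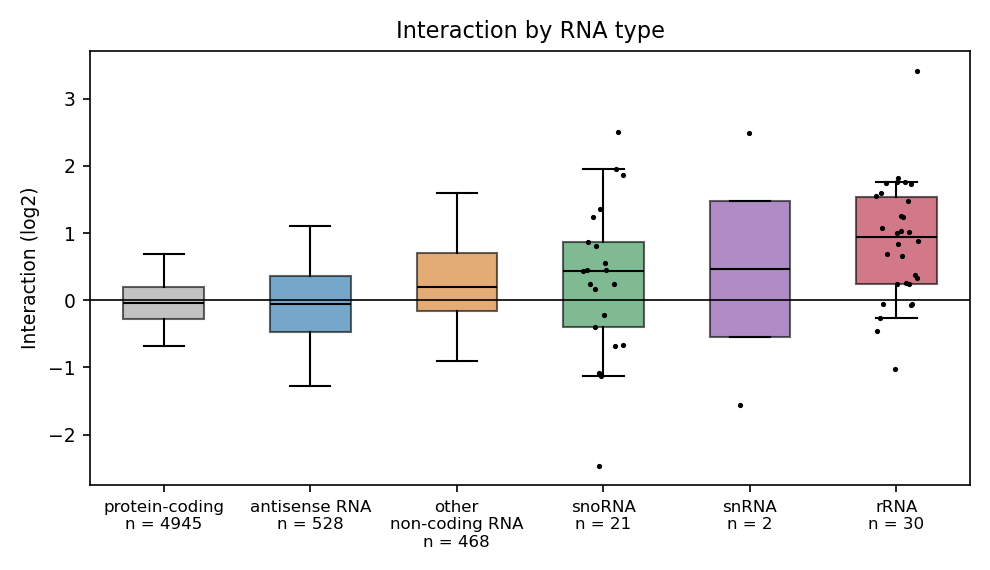
Interaction (log2, computed from the authors' deposited means) by RNA type. Boxes span the quartiles with the median as a line, whiskers run over the 5th to 95th percentile, and single points are drawn for types with fewer than 100 members; the medians are -0.05 for protein-coding genes, -0.06 for antisense RNAs, 0.20 for other non-coding RNAs and 0.94 for rRNAs.

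Among the members, the largest called excess in the limma fit was that of SPNCRNA.863, a predicted intergenic RNA on chromosome I. Its normalised counts were 7618, 4905 and 5290.4 in the double mutant, 761, 913 and 559 in med20Δ, 103, 92.2 and 97.7 in rrp6Δ, and 737, 397 and 345 in wild type. The libraries of the double mutant were all above every other library and those of rrp6Δ all below, while med20Δ overlapped wild type. SPNCRNA.863 fell without Rrp6 alone (log2 -2.24, adjusted p = 3.24e-04 by limma) and rose in the double mutant (log2 3.64, adjusted p = 1.46e-06). From the authors' deposited tables, its level was 12.2-fold that of wild type in the double mutant, against 0.303-fold expected from the product. The interaction by limma was 5.24 ± 0.41 (SE, adjusted p = 1.03e-05), and it was called in each of 12 fits that left out 1 library. By the authors' deposited tables the interaction was 5.33 for SPNCRNA.863 and 5.67 for grt1, described next. Of the neighbours of SPNCRNA.863 in the RefSeq order, SPNCRNA.861 had an interaction of 2.31 and SPNCRNA.862 of 0.90, and the protein-coding gene SPAPB2C8.01 on the other side had -0.55.

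The gene grt1, predicted to encode a transcription factor, stood at low levels in all 3 mutants. Its normalised counts were 9.23, 7.85 and 9.78 in the double mutant, 2.09, 2.53 and 5.04 in med20Δ, 4.93, 7.61 and 2.84 in rrp6Δ, and 118, 121 and 43.9 in wild type. Every mutant library was below every wild-type library, and the libraries of the double mutant were above all single-mutant libraries. Each single deletion lowered grt1, by 4.43 on the log2 scale in med20Δ (limma, adjusted p = 4.92e-04) and by 3.90 in rrp6Δ (adjusted p = 3.24e-04), and so did the double deletion, by 3.13 (adjusted p = 6.12e-04). From the authors' deposited tables the product is 0.00188-fold of wild type, against 0.0957-fold observed in the double mutant. At such a product the expected count lies below 1 per library, while the lowest value in the files is a floor of 1 count. The double mutant could thus not reach the product, and the low single-mutant levels fixed a positive sign in advance. The size of the fitted interaction, 5.20 ± 0.70 (SE, limma adjusted p = 0.00611), depends on the value of 1 added before the log. Without the 4 libraries that stood apart, its value was 5.14 with an adjusted p = 0.0847.

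SPBC1348.05, a predicted membrane transporter gene near an end of chromosome II, had 57.3, 29.6 and 48.0 normalised counts in the double mutant, 9.40, 15.2 and 11.4 in med20Δ, 17.3, 17.1 and 13.3 in rrp6Δ, and 35.6, 46.0 and 32.3 in wild type. Both single mutants lay below all wild-type libraries, and the double mutant overlapped wild type. Of the single changes, that in med20Δ was called (log2 -1.60, limma adjusted p = 0.0214) and that in rrp6Δ was not (log2 -1.20, adjusted p = 0.0624). The interaction was 3.0 ± 0.50 (SE, limma adjusted p = 0.0387).

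The gene meu10, whose product is a cell surface protein of ascospore wall assembly, was called higher than wild type in rrp6Δ (limma log2 1.32, adjusted p = 0.0143) but not in med20Δ (log2 -0.11, adjusted p = 0.901), and exceeded the product in the double mutant. It had 675, 562 and 678 normalised counts in the double mutant, 44.9, 77.0 and 41.6 in med20Δ, 131, 146 and 154 in rrp6Δ, and 40.1, 75.2 and 60.7 in wild type. The 3 libraries of the double mutant lay above those of rrp6Δ, which lay above all others. The rise was 11-fold in the double mutant from the authors' deposited tables, against 2.31-fold for the product, and the interaction was 2.26 ± 0.41 (SE, limma adjusted p = 0.0474). Among 90 members of a list of genes named for meiotic expression, it was the 1 call, 7 members lay at least 1 above the product and 3 at least 1 below, against 4.0% and 2.29% of all members, and the median was 0.12.

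The fifth gene called above the product was med20 itself. It had 29.6, 20.1 and 24.9 normalised counts in the double mutant, 6.27, 2.53 and 6.31 in med20Δ, 657, 544 and 572 in rrp6Δ, and 709, 682 and 734 in wild type. The residual reads at the deleted gene were thus higher in the double mutant, whose labels name the allele med20:natMX, than in med20Δ, labelled med20:NAT (limma interaction 2.42 ± 0.42 SE, adjusted p = 0.0447). The rrp6 gene had 0.822 to 2.85 normalised counts in all 6 libraries of strains without it, and 1106 to 2149.6 in the others, and its interaction was 0.13 ± 0.50. The other 19 genes of 20 on a list of Mediator subunits were not called, and the list had a median of 0.08.

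**Figure D3:**
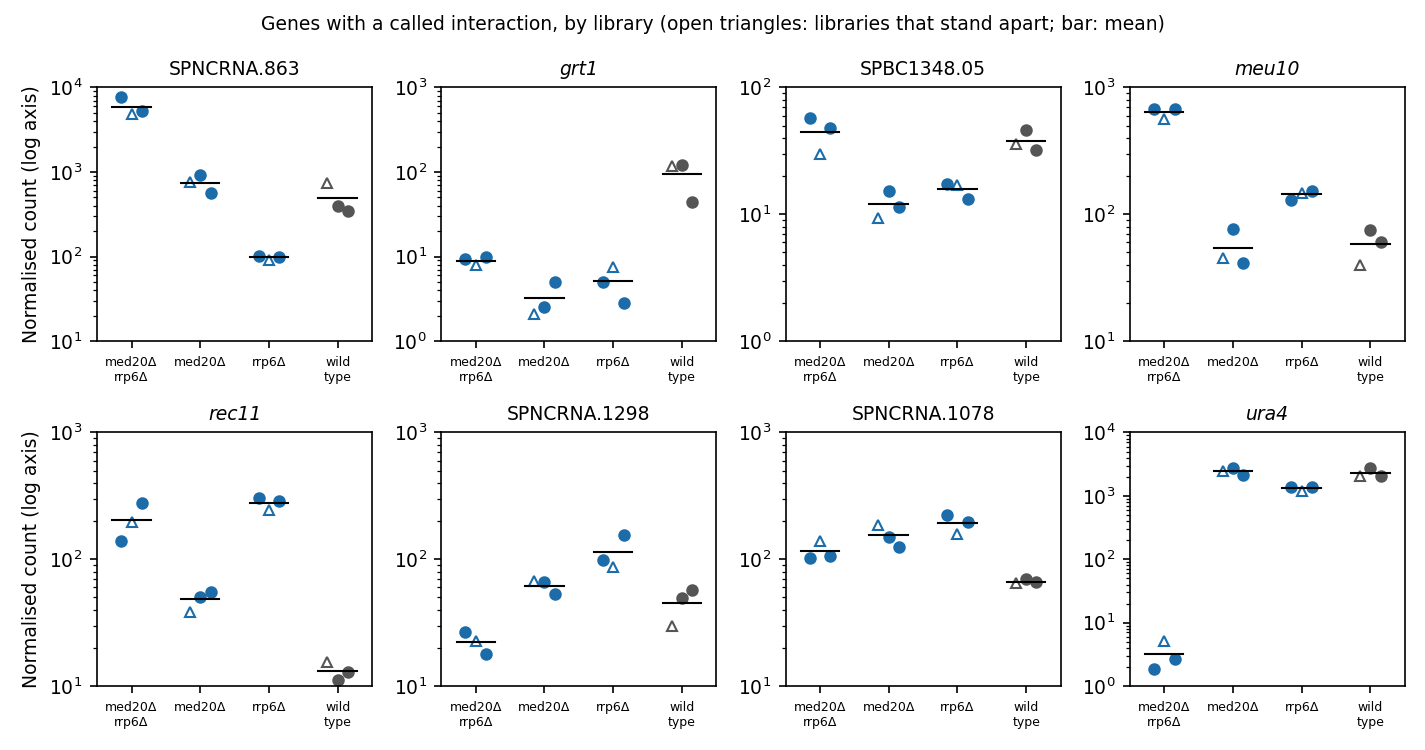
Normalised counts (log axes, which differ between panels) of 8 of the 10 genes with a called interaction, by strain, with 1 point for each library, open triangles for the libraries that stood apart and bars for the means. The upper 4 genes lie above the product and the lower 4 below it; SPNCRNA.863 reaches 7618 in the double mutant and 92.2 in rrp6Δ.

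Among genes below the product, rec11 rose in every mutant and rose less in the double mutant than the single effects predict. Rec11 is a subunit of the meiotic cohesin complex. The gene had 139, 198 and 280.0 normalised counts in the double mutant, 38.6, 50.5 and 55.5 in med20Δ, 303, 244 and 288 in rrp6Δ, and 15.6, 11.2 and 12.9 in wild type. The double mutant overlapped rrp6Δ, with med20Δ between these and wild type. From the authors' deposited tables the product of the single effects is 77.8-fold, against 15.6-fold observed. By limma the interaction was -2.27 ± 0.41 (SE, adjusted p = 0.0474), and the double mutant was not called against rrp6Δ (log2 -0.49, adjusted p = 0.322).

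Most other transcripts under Mmi1 had interactions of the same sign. Of 17 genes on the list of Mmi1 targets, 10 were members, rec11 among them. Of these 10, 9 had an interaction below 0, with a median of -0.84 against -0.03 for all members. At least 1 below the product were 2 of the 10, against 2.29% of all members. At an unadjusted p under 0.05 by limma, 3 were below, against 174 of all 5785 genes tested. All 10 were called higher by limma in the double mutant than in med20Δ and in rrp6Δ than in wild type, against 6.78% and 4.37% of all genes tested. In med20Δ 2 of the 10 were called higher than in wild type, against 1.97%. The forkhead gene mei4, which drives the middle meiotic program, had 212, 355 and 320.0 normalised counts in the double mutant, 84.6, 63.1 and 73.2 in med20Δ, 348, 453 and 435 in rrp6Δ, and 44.5, 35.9 and 55.5 in wild type. Its interaction was -1.20 ± 0.37 (SE, limma adjusted p = 0.426). For mug45 the interaction was -0.91 ± 0.33 (adjusted p = 0.552), and mug8 was the 1 member with a positive value, 0.62. Of the list, rec11 alone was called.

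Both antisense RNAs called below the product rose in at least 1 single mutant. SPNCRNA.1298 had 26.5, 22.7 and 17.8 normalised counts in the double mutant, 66.8, 65.7 and 53.0 in med20Δ, 98.7, 86.5 and 156 in rrp6Δ, and 30.0, 49.4 and 56.8 in wild type. It was higher than wild type in rrp6Δ (limma log2 1.31, adjusted p = 0.0309) and lower in the double mutant (log2 -0.96, adjusted p = 0.0410), with an interaction of -2.75 ± 0.46 (SE, adjusted p = 0.0387). SPNCRNA.1078 had 103, 139.5 and 106 normalised counts in the double mutant, 185.9, 150.3 and 126 in med20Δ, 224, 157 and 195 in rrp6Δ, and 64.5, 69.6 and 65.8 in wild type. Every mutant stood above wild type, and the mean of the double mutant was below that of either single mutant (interaction -1.90 ± 0.34 SE, limma adjusted p = 0.0474). The sources used here do not give whether the authors' counting used the strand, so reads of an antisense RNA and of the gene across from it may not be separated.

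The most negative interactions belonged to the ura4 locus. The pyrimidine synthesis gene ura4, a common selection marker, had 1.85, 5.23 and 2.67 normalised counts in the double mutant, 2475, 2767 and 2105 in the libraries labelled med20Δ, 1371, 1187 and 1376 in rrp6Δ, and 2034, 2715 and 2089.8 in wild type. The labels name ura4-D18 for med20Δ too, and the counts there go against that label. The interaction was -8.45 ± 0.37 for ura4 and -4.57 ± 0.35 for its neighbour new25 (SE, limma adjusted p = 2.11e-08 and 1.03e-05). On the other side of ura4, tam14 had -2.26 ± 0.51 (adjusted p = 0.134). The ura4 allele differs between the strains, so at this locus it cannot be told apart from the deletions. Neither ura4 nor new25 was called in a single mutant, and both were called in each of 12 fits that left out 1 library.

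Only 4 of the 10 calls, SPNCRNA.863, grt1, ura4 and new25, were made in every fit that left out 1 library. For grt1 the floor of 1 count fixed the sign, so these fits add no support for its direction. The other 6 were called in 0 to 2 of these 12 fits, with values of the same sign in each. Their adjusted p-values lay between 0.0387 and 0.0474 with all libraries. With a term in the model for the 4 libraries that stood apart, an alternative chosen after seeing the data, 17 genes were called above and 16 below. With this term all 10 genes had an adjusted p under 0.05, the highest being 0.0137 for rec11. Added above the product were, among others, the RNase MRP gene mrp1, the snoRNA snoR69b and fbp1, and added below it were tam14, the snoRNA snoR47 and the antisense RNA SPNCRNA.1280. Without these 4 libraries 5 genes were called above and 2 below.

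Genes near the ends of chromosomes I and II stood out by count, a pattern chosen after its values were seen and so given with no test. Among the first 20 protein-coding genes from each of these 4 ends, 58 of 80 were members, and their median interaction was 0.99, with 28 at least 1 above the product and 3 at least 1 below. These are 48.3% and 5.17% of the 58, against 4.0% and 2.29% of all members. The median was 0.21 for the next 20 genes and -0.07 for the 20 after those, and -0.05 for the 3843 members farther in. By limma the median standard error was 0.54 for the 58 genes and 0.37 for those farther in, so values near the ends were less precise. Of the 58 genes, 40 were lower than wild type in both single mutants by the authors' deposited tables, and 17 of these were higher than wild type in the double mutant. Over all members 35.8% were lower in both single mutants, and 3.45% were so and higher in the double mutant. Members were kept by their wild-type mean alone, which for genes of low level favours those with high wild-type values. Such values lower both single changes and raise the interaction, and the part of this in the counts was not tested. Of the 58, 2 were called above the product, grt1 and SPBC1348.05, against 0.0864% of all genes tested. For grt1 the sign was fixed by the floor of 1 count. At an unadjusted p under 0.05, 25 of the 58 were above and 2 below, against 185 above and 174 below of all 5785 genes tested. All these counts rest on the values by which the pattern was chosen. They describe the pattern and add no separate support for it.

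**Figure D4:**
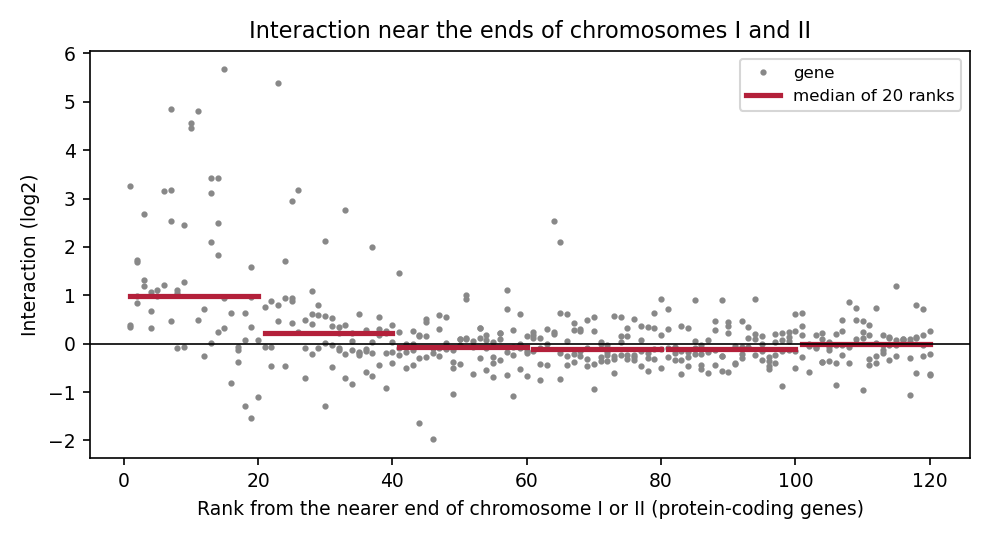
Interaction (log2, computed from the authors' deposited means) of protein-coding genes by their rank from the nearer end of chromosome I or II in the RefSeq gene order, for the ranks nearest the ends. Each point is a gene and each line the median of 20 ranks; the median is 0.99 over the first 20 ranks and 0.21 over the next 20.

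In these regions 1 group of genes was highest in libraries 1 and 3 of the double mutant and another in library 2, which stood apart. The orphan gene SPBPB2B2.18 had 102, 25.3 and 80.0 normalised counts in the double mutant, 4.18, 3.79 and 10.1 in med20Δ, 4.93, 11.4 and 3.79 in rrp6Δ, and 3.34, 28.1 and 19.4 in wild type. SPBPB2B2.15, of a conserved fungal family, had 17.2, 67.1 and 12.4 in the double mutant, 2.09, 1.26 and 5.04 in med20Δ, 10.7, 6.65 and 4.74 in rrp6Δ, and 12.2, 16.8 and 16.8 in wild type. The genes ftm2 (5Tm protein family) and SPAC977.18 followed SPBPB2B2.18, while SPAC977.05c and SPBC1348.06c followed SPBPB2B2.15. By limma the interaction was 4.17 ± 1.02 for SPBPB2B2.18 and 3.89 ± 0.86 for SPBPB2B2.15 (SE, adjusted p = 0.212 and 0.134). For ftm2 it was -0.83 over the 4 libraries that stood apart and 5.80 over the other 8, and for SPBPB2B2.15 it was 5.25 and 3.20. The part of the set-apart libraries in these values was not tested further. Genes here belong to families with near-identical copies, so a level is uncertain for a single copy. The hexose transporter gene ght7, 2 places from grt1, had a deposited interaction of 3.42 (limma 2.81 ± 0.96 SE, adjusted p = 0.505). In the double mutant ght7 had 56.6, 11.3 and 6.22 normalised counts, with library 1 well above the other two.

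RNAs that the exosome trims or turns over gave several large values that did not pass the test. Poly(A) selection keeps an RNA by its tail, so levels of mrp1, snoRNAs and snRNAs here depend on both amount and tailing. The RNase MRP RNA mrp1, the RNA subunit of an enzyme that processes pre-rRNA, had 3458, 2044 and 2806 normalised counts in the double mutant, 60.6, 236 and 59.3 in med20Δ, 112, 94.1 and 104 in rrp6Δ, and 17.8, 35.9 and 33.6 in wild type. All mutant libraries exceeded all wild-type libraries, and the double mutant exceeded both single mutants. From the authors' deposited tables the level was 96.0-fold that of wild type, against a product of 14.6-fold, with a limma interaction of 2.97 ± 0.64 (SE, adjusted p = 0.134). The snoRNA snoR69b had 5879, 3721 and 4915 normalised counts in the double mutant, 176, 553 and 322 in med20Δ, 394, 283 and 388 in rrp6Δ, and 91.2, 161 and 188 in wild type. Its interaction was 2.59 ± 0.53 (SE, limma adjusted p = 0.111), and that of the snoRNA sno20 was 2.03 ± 0.59 (adjusted p = 0.359).

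The snoRNA snoR47 went the other way. It had 8.62, 9.59 and 10.7 normalised counts in the double mutant, 44.9, 79.6 and 68.1 in med20Δ, 22.2, 20 and 28.4 in rrp6Δ, and 15.6, 38.2 and 32.3 in wild type. The double mutant was below every other library, and the interaction was -2.39 ± 0.54 (SE, limma adjusted p = 0.134). The 2 snRNA members varied widely between libraries. For snu32, listed as U3B, the counts were 3184, 54.9 and 1159 in the double mutant, 5.22, 120.0 and 66.8 in med20Δ, 115, 10.5 and 91.0 in rrp6Δ, and 1.11, 14.6 and 37.4 in wild type, with an interaction of 1.80 ± 2.12. In every strain the lowest value of snu32 came from the library that stood apart.

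The rRNA genes had a median log2 change of 1.01 in the double mutant, 0.90 in med20Δ and -0.45 in rrp6Δ, from the authors' deposited tables. Their summed normalised counts were 12932, 4978 and 8796 in the double mutant, 887, 9705 and 9805 in med20Δ, 5922, 1152 and 6679 in rrp6Δ, and 935, 9895 and 8314 in wild type. In each strain the lowest sum was that of the library that stood apart, and the drop was smallest in the double mutant. SPRRNA.14 had 69.0, 66.3 and 76.4 normalised counts in the double mutant, 28.2, 80.8 and 87.0 in med20Δ, 11.5, 4.75 and 8.53 in rrp6Δ, and 22.3, 28.1 and 31.0 in wild type, with an interaction of 1.92 ± 0.61 (SE, limma adjusted p = 0.453). Copies of rRNA and tRNA genes are near-identical, and oligo(dT) selection leaves little of these RNAs unless they carry a tail, so a level here depends on both amount and tailing.

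The tRNA genes lay outside the members because wild type held almost none of their reads. In a fit with no minimum, over 6662 genes, 164 tRNA genes had a median interaction of 1.78, against -0.02 for all genes. Of these tRNA genes 20 were called above the product and none below by limma, 88 and 0 at an unadjusted p under 0.05. Over all genes of this fit 28, or 0.420%, were called above, the 20 tRNA genes among them, and 0.0901% below. Among the 5785 members tested, which hold no tRNA gene, 185 were above and 174 below at an unadjusted p under 0.05 by limma. In wild type 92 of the 164 were at the floor of 1 count in each library, and for the other 72 the median was 2.18, with 13 of the 20 calls. Summed over tRNA genes, normalised counts were 8929, 2603 and 6384 in the double mutant, 341, 923 and 527 in med20Δ, 389.7, 306 and 357 in rrp6Δ, and 229, 297 and 383 in wild type. Every library of the double mutant exceeded every other library, while the single mutants and wild type overlapped.

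Of the tRNA genes in the fit with no minimum, 106 were called higher than wild type in the double mutant, 1 in med20Δ and 0 in rrp6Δ (limma; none was called lower). Among the 5785 members tested, which hold no tRNA gene, 12.3%, 1.97% and 4.37% were called higher in these strains. Of the 20 with a called interaction, 8 carry a glycine identifier, of 12 such identifiers tested. SPBTRNAGLY.06, which the files describe as a lysine tRNA, is 1 of these. SPBTRNAGLY.03 had 213, 54.1 and 163 normalised counts in the double mutant, 2.09, 3.79 and 1.26 in med20Δ, 2.47, 0.951 and 0.948 in rrp6Δ, and 1.11, 1.12 and 2.58 in wild type. Its interaction was 5.37 ± 0.71 (SE, limma adjusted p = 0.00314), and for SPCTRNAPHE.05, a phenylalanine tRNA gene, it was 4.99 ± 0.92 (adjusted p = 0.0369). Leaving out 1 library gave 6 to 64 tRNA calls, the highest without library 2 of the double mutant, and 6 tRNA genes were called in all of these fits. Without the 4 libraries that stood apart, 27 tRNA genes were called.

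**Figure D5:**
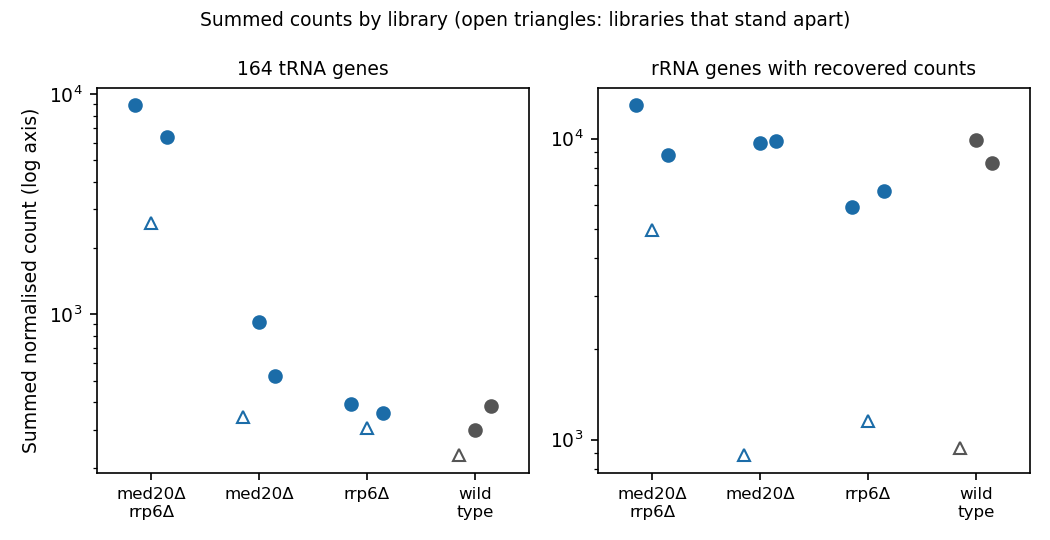
Summed normalised counts of 164 tRNA genes (left) and of the rRNA genes whose counts could be recovered (right) on log axes, with 1 point for each library and open triangles for the libraries that stood apart. For tRNA genes the double mutant lies between 2603 and 8929 and all other libraries at or below 923; for rRNA genes the libraries that stood apart are the lowest of each strain.

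The effect of losing Rrp6 can be read in cells with Med20 (rrp6Δ against wild type) and without it (the double mutant against med20Δ), in libraries that the 2 readings do not share. Other non-coding RNAs had a median log2 change of 0.84 without Med20 and 0.62 with it, and limma called 150 and 90 of 465 higher, 81 of them in both. For antisense RNAs the medians were 0.43 without Med20 and 0.51 with it, with 95 and 97 of 528 called higher and 54 in both. Over all genes tested 6.78% were called higher without Med20 and 4.37% with it. Across genes the 2 readings had a Pearson correlation of 0.75 over 465 other non-coding RNAs and 0.55 over 528 antisense RNAs, where genes are not independent replicates and share each library's depth. The difference between the readings of a gene is its interaction, and of these RNAs SPNCRNA.863, SPNCRNA.1298 and SPNCRNA.1078 were called.

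Of 17 members of an iron and copper list, 12 had an interaction below 0 and 5 above, and the median was -0.25 against -0.03 for all members. Of these genes, 5 lay at least 1 below the product in the deposited tables, against 2.29% of all members, and none at least 1 above. At an unadjusted p under 0.05, 4 were below, against 174 of all 5785 genes tested, and limma called none. The 5 were fip1, fio1, str1, str3 and frp1, genes of iron permease, ferroxidase, siderophore transport and ferric reductase. The reductase gene frp1 had 89.3, 58.4 and 184 normalised counts in the double mutant, 1314, 1036 and 692 in med20Δ, 236, 292 and 274 in rrp6Δ, and 1146, 373 and 365 in wild type. Its interaction was -2.29 ± 0.64 (SE, limma adjusted p = 0.329), and that of the permease gene fip1 was -2.83 ± 1.08 (adjusted p = 0.594). For fip1 the libraries of wild type ranged from 307 to 2279, with the highest in the library that stood apart. The copper transporter gene ctr4 had -0.10 ± 0.46.

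Of 33 respiratory chain genes, 28 had an interaction above 0, against 2803 of all 5994 members, with a median of 0.47 and 1 at least 1 above. At an unadjusted p under 0.05, 7 of 29 tested were above, against 185 of all 5785, and none was called. Cytochrome c, cyc1, had an interaction of 1.00 ± 0.45 (SE, limma adjusted p = 0.789), and the ATP synthase gene atp18 had 1.64 ± 0.56 (adjusted p = 0.509). Of 33 core stress genes 6 lay at least 1 above and 1 below, against 4.0% and 2.29% of all members, none called, with a median of 0.06. The metallothionein gene zym1 had 12058, 5592 and 7485 normalised counts in the double mutant, 1797, 1452 and 762 in med20Δ, 592, 403 and 305 in rrp6Δ, and 260.4, 262 and 497 in wild type. All libraries of the double mutant and of med20Δ exceeded wild type, and the level was 24.9-fold from the authors' deposited tables against a product of 5.10-fold (limma interaction 2.29 ± 0.54 SE, adjusted p = 0.162). The small heat-shock gene hsp16 had a deposited interaction of 2.13 (limma adjusted p = 0.552).

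Of 31 glucose and carbon genes, 5 lay at least 1 above the product and 6 at least 1 below, against 4.0% and 2.29% of all members. The median was -0.12 over the list and 0.24 by limma over the 18 that could be tested, and none of these was called. The gluconeogenic enzyme gene fbp1, which glucose represses, had 1028, 531 and 616 normalised counts in the double mutant, 96.1, 107 and 108 in med20Δ, 73.2, 172 and 62.6 in rrp6Δ, and 115, 51.6 and 90.4 in wild type. The double mutant stood above all other libraries, which overlapped (interaction 2.55 ± 0.55 SE, limma adjusted p = 0.134). Of 24 mating and pheromone genes, 6 lay at least 1 above, against 4.0% of all members, and none below, limma called none and the median was 0.33. The M-factor gene mfm2 had a deposited interaction of 2.60 (limma adjusted p = 0.635). Its normalised counts in the double mutant were 162, 28.8 and 25.8, with library 1 well above the other two, and leaving out 1 library gave interactions of 1.17 to 2.47 by limma, the lowest without library 1 of the double mutant. The labels give h+ for med20Δ and h- for rrp6Δ and wild type. The receptor gene mam2, active in M cells, had 55.5 to 66.8 normalised counts in med20Δ and 80.8 to 159 in wild type, and map3, active in P cells, had 115 to 155 and 112 to 244, so neither was near 0 in either strain.

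The 13 Tf2 retrotransposon copies, which cannot be told apart by short reads, had interactions of 0.26 to 0.52 with none called, and limma called all 13 higher in the double mutant than in wild type, against 12.3% of all genes tested. The 21 nitrogen starvation genes had a median of 0.02, with 2 at least 1 above, mei2 and ste11, against 4.0% of all members. Neither was called by limma, with 1.89 ± 0.65 (SE, adjusted p = 0.505) for mei2 and 0.98 ± 0.54 (adjusted p = 0.873) for ste11. No gene was called for the interaction in the lists of exosome and surveillance factors (26 members, median -0.15), ribosome biogenesis (74, -0.15), the RNA polymerase III machinery (25, -0.11), phosphate (12, 0.08), flocculation (20, -0.03), histones (11, 0.12), S-phase genes under MBF (20, -0.22), mitosis and cytokinesis (22, -0.09) and heterochromatin and RNAi (26, -0.12). In these lists 1 gene, the heterochromatin factor gene arb2, lay at least 1 from the product, at -1.15. The pair of But2 family members had a median of 0.10. Cytosolic ribosomal protein genes had a median of -0.25, with 115 of 141 below 0, against 3191 of all 5994 members. The 38 of them that could be tested had a limma median of -0.05, and none was called. Of 12 housekeeping control genes 3 lay at least 1 below, against 2.29% of all members. They were act1, tdh1 and fba1. The list had a median of -0.44, and 6 genes were tested, none being called. The strain marker list held ura4, new25 and med20 among its 10 genes, and no others of it were called.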

How the data were processed

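Poly(A)-selected RNA of 12 fission yeast samples, 3 for each of 4 strains, was sequenced. The authors used Bowtie 0.12.7 and DESeq, per the submitters' processing notes. Not given in the sources used here are the version of DESeq, the counting tool, its use of strand and the genome build. The authors deposited 3 tables of a mutant against wild type. Per the file headers, they hold a mean normalised signal of each group (counts divided by size factors), the fold change as a ratio, its log2 value, and p-values. None of the deposited p-values was used. The tables hold no values of single libraries, so each mean was resolved into 3 whole counts, 1 for each library. The share of means resolved was 97.3% in the double mutant, 97.6% in med20Δ, 98.0% in rrp6Δ and 100% in wild type. The lowest mean left unsolved was 10274. The splitting and the test were checked on simulated data.

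The interaction was computed from the deposited means as defined at the start and was tested on log2(normalised count + 1) with limma 3.58.1 (R 4.3.3). The fit used a mean-variance trend and no covariates, with all 4 strains in 1 model. The log2 values of this test understate changes of low genes. A floor of 1 count in each library is the lowest value in the files, and intervals cover the spread between libraries. RNA types come from the files' descriptions or identifiers. Gene names and the order of neighbours come from the RefSeq annotation, which matched 6769 of 6888 identifiers (98.3%), and none of its coordinates were used. The members and the 24 gene lists were chosen with earlier results of these data known, and 1 of the lists is not reported here. Named genes are the called genes of each RNA type with a mean of at least 50, up to 4 called members of a list in each direction or else the 2 with the largest contrast, the deleted genes and the strain markers. Genes near chromosome ends, grt1 and SPBC1348.05 among them, and tRNA, rRNA, snRNA and snoRNA genes, mrp1, SPNCRNA.1280, SPNCRNA.861, SPNCRNA.862 and further list members were chosen after their values were seen. Alternatives were other minima, scalings, added constants, limma voom, a sum in place of the product, and leaving out libraries.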

Additional observations from a re-analysis of the deposited data

Results flagged for a closer look

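The effect of 1 deletion was called different between cells with and without the other deletion for 10 genes, by the test of that difference itself (limma with Benjamini-Hochberg adjustment over 5785 genes). The log2 difference was 5.24 for SPNCRNA.863, 5.20 for grt1, 3.0 for SPBC1348.05, 2.42 for med20 and 2.26 for meu10. It was -8.45 for ura4, -4.57 for new25, -2.75 for SPNCRNA.1298, -2.27 for rec11 and -1.90 for SPNCRNA.1078. Of these genes SPNCRNA.863, grt1, ura4 and new25 were called in each of 12 fits that left out 1 library. The others were called in 0 to 2 of these fits. The sign for grt1 was fixed by the floor of 1 count, and its size depends on the value of 1 added before the log. At med20 the labels of the double mutant and of med20Δ name the allele differently. The ura4 allele differs between the strains, and new25 is the neighbour of ura4. At these genes the part of the alleles cannot be told apart from the effect of the deletions.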

How the results depend on the processing

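No paired analysis was possible because the tables' columns carry no replicate letters. Against 5 genes called above the product and 5 below, the counts were 2 and 2 with a wild-type mean of at least 50, 2 and 2 with total counts as the scale, and 3 and 2 by limma voom. Without a minimum 28 were called above. Re-centring on the median protein-coding gene left 3 below, and leaving out the 4 libraries that stood apart left 2 below. A term for these libraries gave 17 above and 16 below; these last alternatives were chosen after seeing the data. Leaving out 1 library gave 2 to 9 above, 2 to 4 below and 6 to 64 tRNA genes above. With an interaction of at least 2 in place of 1, the counts above and below were 38 and 10 for protein-coding genes, 6 and 5 for antisense RNAs, 10 and 1 for other non-coding RNAs, 1 and 1 for snoRNAs, and 1 and 0 for rRNAs, with 0 snRNAs below. At a wild-type mean of at least 50 they were 14 and 18 for antisense RNAs, 36 and 7 for other non-coding RNAs, 2 and 1 for snoRNAs, and 6 and 0 for rRNAs. Without a minimum they were 62 and 68 for antisense RNAs, 142 and 68 for other non-coding RNAs, 8 and 9 for snoRNAs, and 5 snRNAs were above. With a sum in place of the product 8 snoRNAs were above and 1 below, with 0 snRNAs below. Re-centring, or 5 added to the deposited means, left 0 rRNAs below. Of 109 named genes over 1939 values, 25 values changed sign. Leaving out 1 library gave -2.21 to 0.092 for cox7, -0.039 to 1.86 for rps3001, -0.10 to 0.48 for rrp6, -2.61 to 0.20 for snu6, -0.77 to 0.28 for SPRRNA.31, -2.19 to 0.55 for SPNCRNA.742, -0.42 to 0.21 for ctr4, -0.22 to 0.59 for fep1 and -0.57 to 0.15 for mfm3. Without the 4 libraries SPNCRNA.742 was at 0.13 and fep1 at -0.057. Fewer genes tested or fewer samples are part of several alternatives, and otherwise the cause was not tested.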
